A study of Mus musculus with 3 samples.

Results

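The mitotic spindle, kinetochore and condensin genes are a list of 54 genes whose products drive a cell through mitosis. A gene was measured where a probe of the array carried one of its RefSeq accessions and stood well above background, by the scanner software's mark, on at least 1 of 3 arrays. By that rule 53 genes with 70 probes were measured, of 32524 genes and accessions with 39404 probes in all, and the remaining member, Kif14, had no probe under a matching accession. All 70 probes were well above background on all 3 arrays. The dimmest, a probe for Nuf2, had a processed signal of 55.6 on the Dnmt1 shRNA array, 69.0 on the ATM-vector array and 67.9 on the empty-vector array, where the lowest signals well above background were 25.1, 32.7 and 37.8 intensity units.

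The 3 groups were primary mouse embryonic fibroblasts with the genotype Rb-/-;ATM-/- on the C57BL/6J background, taken from an embryo of day 10.0, and differed in the vector they were given: a Dnmt1 shRNA vector, an ATM expression vector, or an empty vector. All 3 groups carry both knockouts. After 3 days in puromycin (4 ug/ml) the cells grew for 4 more days, and each group was measured on 1 Agilent 1-colour array. The study's title concerns control of DNMT1 stability and DNA methylation through ATM and pRB, the retinoblastoma protein. Per the design text, the knockdown and the ATM-vector cells were made from the same cells that stand as the empty-vector group, so the 3 arrays describe derivatives of 1 source. With 1 array a group there is no test, p-value or standard error.

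Mitosis depends on a wave of gene expression that peaks in G2 and M. Cyclin B and Cdk1 start it, the kinesins and the Ndc80 complex attach chromosomes to the spindle, the checkpoint kinases hold anaphase until every kinetochore is attached, and the anaphase-promoting complex then releases the sister chromatids. The genes of this wave are repressed in resting cells by a complex of pocket proteins with the MuvB core, which reads a promoter element called the cell cycle genes homology region (CHR), and they are activated in G2 by MuvB with B-MYB and FOXM1. Many of these promoters also carry CCAAT boxes, which bind NF-Y. RNA of such genes in a culture depends both on how many cells are near mitosis and on how much RNA each holds, and an array of bulk RNA cannot tell fewer dividing cells from less RNA per cell.

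Promoters in the RefSeq table (GRCm38.p6; from 250 bases before to 50 after a gene's start) were matched for 45 of the 54 members, with 48 promoters. The CHR was searched as TTTGAA or TTCGAA and the CCAAT box as CCAAT, each on both strands, with overlapping matches counted. A CHR match lay in 37 of the 48 member promoters (77.1%) and in 6316 of all 32851 promoters (19.2%). With its middle within 60 bases of the start, it lay in 33 member promoters (68.8%) and in 1994 promoters of all (6.07%). In promoters of 56 S-phase genes, a list for comparison of which 44 matched, that share was 4 of 51 promoters (7.84%), and in promoters of genes well above background on all 3 arrays it was 4.14%. CCAAT was found in 77.1% of member promoters, 54.9% of S-phase promoters and 37.4% of all promoters, and both motifs together stood in 66.7%, 9.80% and 7.52% of them. A match describes letters only and is not a bound site.

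The 6 promoters below belong to the members with a CHR match near the start whose log2 ratios between the Dnmt1 shRNA array and the empty-vector array were lowest. They are shown as examples of where the motifs lie, and since a CHR match was a condition of the choice, that they share it is no finding. Members as low without a CHR match include Kif18a and Ccnb1. Capitals mark the CHR and CCAAT matches on either strand. On GRCm38.p6 they are Cdc25b at chr2:131186698-131186997 (plus strand), Bub1 at chr2:127831810-127832109 (minus strand), Bub1b at chr2:118597961-118598260 (plus strand), Ube2c at chr2:164769679-164769978 (plus strand), Ect2 at chr3:27153829-27154128 (minus strand) and Cdca3 at chr6:124829926-124830225 (plus strand).
Cdc25b: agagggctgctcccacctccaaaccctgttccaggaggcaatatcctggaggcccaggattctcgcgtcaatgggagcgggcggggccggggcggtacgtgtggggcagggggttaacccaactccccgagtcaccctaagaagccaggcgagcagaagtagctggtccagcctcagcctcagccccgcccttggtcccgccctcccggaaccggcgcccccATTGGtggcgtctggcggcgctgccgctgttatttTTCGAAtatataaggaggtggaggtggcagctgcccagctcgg
Bub1: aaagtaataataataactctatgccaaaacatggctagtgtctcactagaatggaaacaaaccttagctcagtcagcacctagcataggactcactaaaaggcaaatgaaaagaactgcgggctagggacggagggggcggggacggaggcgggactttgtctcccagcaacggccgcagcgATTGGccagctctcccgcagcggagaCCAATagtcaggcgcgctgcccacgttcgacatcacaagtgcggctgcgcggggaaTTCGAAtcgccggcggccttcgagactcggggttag
Bub1b: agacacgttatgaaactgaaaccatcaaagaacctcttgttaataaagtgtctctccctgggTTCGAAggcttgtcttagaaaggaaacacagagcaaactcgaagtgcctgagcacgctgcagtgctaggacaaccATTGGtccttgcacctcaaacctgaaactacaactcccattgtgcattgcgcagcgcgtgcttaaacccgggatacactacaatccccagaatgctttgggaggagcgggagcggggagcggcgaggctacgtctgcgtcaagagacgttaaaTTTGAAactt
Ube2c: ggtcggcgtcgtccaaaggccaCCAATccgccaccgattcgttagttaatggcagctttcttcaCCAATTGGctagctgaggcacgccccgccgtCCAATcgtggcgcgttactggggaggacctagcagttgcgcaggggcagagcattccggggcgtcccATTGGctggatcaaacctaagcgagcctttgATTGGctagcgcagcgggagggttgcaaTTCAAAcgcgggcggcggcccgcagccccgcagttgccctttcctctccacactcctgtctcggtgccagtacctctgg
Ect2: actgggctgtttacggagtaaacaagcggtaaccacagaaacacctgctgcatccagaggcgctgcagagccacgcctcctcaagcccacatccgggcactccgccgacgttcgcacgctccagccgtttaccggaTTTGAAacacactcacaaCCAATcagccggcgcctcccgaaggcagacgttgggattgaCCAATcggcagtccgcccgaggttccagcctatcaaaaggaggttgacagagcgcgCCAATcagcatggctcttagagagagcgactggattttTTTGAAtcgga
Cdca3: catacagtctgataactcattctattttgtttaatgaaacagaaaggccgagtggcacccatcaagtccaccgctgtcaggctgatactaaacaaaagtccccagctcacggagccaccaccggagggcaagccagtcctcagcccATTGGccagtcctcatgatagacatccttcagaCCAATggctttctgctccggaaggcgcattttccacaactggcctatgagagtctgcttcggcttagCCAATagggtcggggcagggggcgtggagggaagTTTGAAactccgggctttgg

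Counted from the start of transcription, where the first transcribed base is 1, the CHR match began at 8 in Cdc25b, 15 in Bub1, 41 in Bub1b, 40 in Ect2 and 31 in Cdca3, and at -29 on the opposite strand in Ube2c. Bub1b and Ect2 each held a further CHR match at -188 and -114. Ube2c had 6 CCAAT matches, and Ect2 and Cdca3 had 3 each. The plot of CHR positions shows that the member promoters with a match gathered around the start, with 10 of 48 promoters in the bin of 20 bases that begins at -30 and 10 in the bin that begins at 10, where all promoters stood near 1%.

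**Figure D1:**
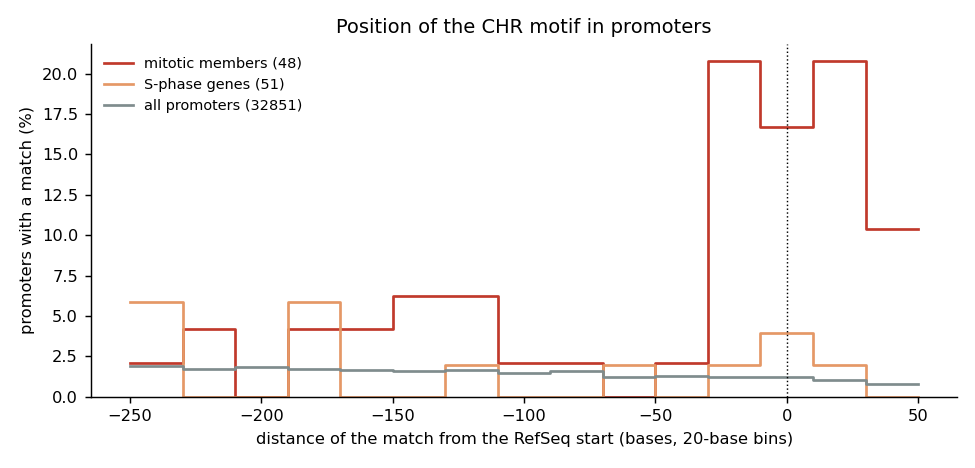
Share of promoters (%, vertical axis) with a CHR match beginning in each 20-base bin, against distance from the RefSeq start in bases, for 48 promoters of mitotic members, 51 of S-phase genes and all 32851 promoters. Member promoters reach 20.8% in the bins that begin at -30 and 10, while all promoters lie at or below 1.91% in every bin.

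The Dnmt1 shRNA array was compared with the empty-vector array to see how the mitotic genes stood when Dnmt1, the maintenance DNA methyltransferase, was depleted. Values are log2 levels, meaning the log2 processed signal minus the array's 75th percentile, averaged over a gene's probes, and a log2 ratio is the difference of 2 such levels. The Dnmt1 probe, whose gene the hairpin targets, had a signal of 956 on the Dnmt1 shRNA array, 3169 on the ATM-vector array and 4908 on the empty-vector array, lowest where the label says it should be targeted, with a log2 ratio of -2.19 to the empty-vector array. The Rb1 probe had signals of 782, 460 and 541 in that order of arrays, and since its place relative to the deleted part is unknown it does not check the knockout. Of the 53 members 52 had a log2 ratio below 0 and 1, Aurkb, had one above 0, where 52% of all 19359 genes counted the same way were below 0. The median was -0.25 for the members, with quartiles of -0.31 and -0.11, and -0.02 for all genes, with quartiles of -0.20 and 0.25. The differences were small and nearly all in one direction. Cdc25b was the 1 member at least 1.5-fold lower, and 0 members were at least 1.5-fold higher, against 4.74% and 13.1% of all genes. At 2-fold 0 members were lower or higher, against 2.23% and 7.68% of all genes. The 1.5-fold counts were thus no higher than the background.

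Brightness moved with the direction of all genes. Mean levels of 44 of the 53 members lay above the 75th percentile of the arrays, and among all 7650 genes that bright 66.4% were below 0, with a median of -0.09, and 1.8% and 2.75% were at least 1.5-fold lower and higher. Both arrays lay on slide 1 and in scan 1. The scanner software's own error of a member's log2 ratio had a median of 0.20, with which 36 members were lower by more than their error, 10 of them by more than 2 errors, and 0 were higher by more than their error. These counts were not made over all genes, so they have no background to be read against. The error is a model of 1 array's spots and does not include the spread between cultures.

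Genes that start mitosis had the lowest median of the 8 roles, -0.32, and all 7 had a log2 ratio below 0. Genes of anaphase and exit stood almost level with them, with a median of -0.31 and all 5 below 0. Cdc25b, a phosphatase that activates Cdk1, had log2 levels of 1.81 on the Dnmt1 shRNA array, against 2.55 on the empty-vector array, a ratio of -0.74 or 1.67-fold lower. Ccnb1, the cyclin that pairs with Cdk1 in mitosis, had levels of 1.61 on the Dnmt1 shRNA array, against 1.99 on the empty-vector array, and its 3 probes gave -0.48, -0.43 and -0.22. Cdc25c, a second phosphatase of Cdk1, stood at -0.36, Foxm1, a transcription factor of G2 genes, at -0.32, Ccnb2 at -0.25, Ccna2 at -0.21 and Cdk1 itself at -0.20. The 3 Cdk1 probes disagreed: the 2 brighter ones gave -0.29 and -0.33 and the dimmest 0.02.

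The checkpoint and mitotic kinases had a median of -0.28 and all 8 lay below 0. Bub1, a kinase of the spindle checkpoint, is the member with the best technical measure, because its probe was spotted 10 times on each array. Its 10 spots had processed signals from 4481 to 5234 with a median of 4847 on the Dnmt1 shRNA array, from 6497 to 7359 with a median of 6623 on the ATM-vector array, and from 7510 to 8258 with a median of 7855 on the empty-vector array. After scaling, the mean level was 1.24 ± 0.07 on the Dnmt1 shRNA array, 1.68 ± 0.06 on the ATM-vector array and 1.77 ± 0.04 on the empty-vector array (SD over 10 spots of 1 array). On the scaled level the spots of the Dnmt1 shRNA array did not overlap those of the other arrays, while those of the ATM-vector and empty-vector arrays overlapped. Bub1 was 1.45-fold lower on the Dnmt1 shRNA array than on the empty-vector array, a difference beyond the spread of its spots, which is technical. Overlap of spots was not counted for the other repeatedly spotted probes, so it has no background to be read against. Bub1b, which holds back Cdc20 in the checkpoint, stood at -0.43. Ttk, the kinase that starts checkpoint signalling, stood at -0.30, Plk1 at -0.28, the centrosome kinase Nek2 at -0.28, Mad2l1 at -0.27 and Aurka, a kinase of spindle poles, at -0.24. Bub3, a partner of Bub1, was at -0.02, within its error of 0.20.

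Subunits of one complex did not all differ by the same amount. In the chromosomal passenger complex Birc5 stood at -0.34, Cdca8 at -0.28 and Incenp, its scaffold, at -0.16, and the 3 Birc5 probes lay between -0.37 and -0.29. Aurkb, the kinase of that complex, was the exception at 0.17, from a single dim probe with levels of -3.18 on the Dnmt1 shRNA array, against -3.35 on the empty-vector array and within its error of 0.21. The 9 kinetochore genes were all below 0, with a median of -0.15. Cenph at -0.33, Cenpf at -0.31, Spc24 at -0.27 and the centromeric histone Cenpa at -0.26 were lowest. Ndc80, Nuf2 and Spc25, the other subunits of the complex that holds Spc24 and grips microtubules, stood at -0.15, -0.11 and -0.07, each within its error.

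Spindle genes lay between -0.50 and -0.06, genes of anaphase and exit between -0.43 and -0.07, and condensin genes with Top2a between -0.27 and -0.03. Kif18a, a kinesin that dampens chromosome movement at the metaphase plate, was lowest of the 8 spindle genes, with levels of -0.29 on the Dnmt1 shRNA array, against 0.21 on the empty-vector array, a ratio of -0.50. Kif11, which pushes the spindle poles apart, stood at -0.27, Kif22 at -0.24, Kif2c, a microtubule depolymerase, at -0.22 and Tpx2, the activator of Aurka, at -0.21. Among genes of anaphase and mitotic exit, Ube2c, the ubiquitin-conjugating enzyme of the anaphase-promoting complex, had levels of 3.73 on the Dnmt1 shRNA array, against 4.16 on the empty-vector array, and its 2 probes gave -0.44 and -0.42. Cdca3 stood at -0.33, the separase gene Espl1 at -0.31 and Cdc20, an activator of that complex, at -0.21, and securin (Pttg1) at -0.07. Condensin subunits Ncapg, Ncaph and Ncapd2 stood at -0.27, -0.26 and -0.22, the ATPases Smc2 and Smc4 that they bind at -0.13 and -0.03, and Top2a, which untangles sister DNA, at -0.25.

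Cytokinesis genes were split. Ect2, the exchange factor that turns on RhoA at the cell equator, stood at -0.38 and its partner Racgap1 at -0.33, with 2 probes at -0.34 and -0.31. Anln, Kif20a, Kif23 and Prc1, which build the contractile ring and the central spindle, lay between -0.09 and -0.03. The median of the 6 measured genes was -0.07. It was 0.03 after cyclic loess, where all genes had a median of 0.02. It was 0.04 when each array was centred on the median level of the housekeeping list's probes. That step moved every gene alike and put the median of all genes at 0.10. It also moved the list's own median ratio from -0.07 to 0.05, past 0.

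**Figure D2:**
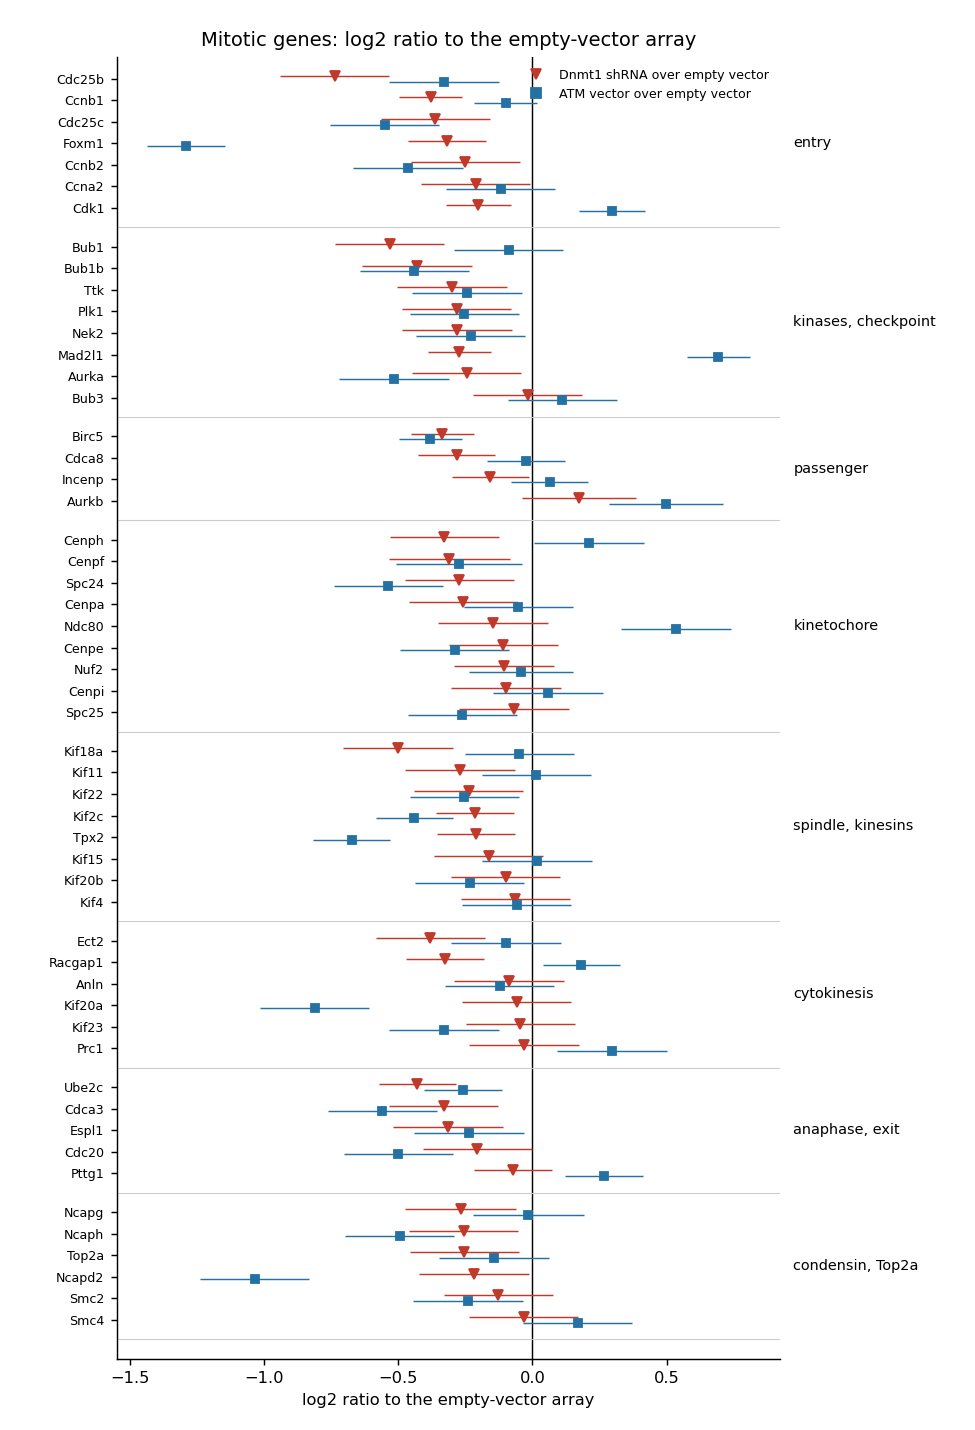
Log2 ratio to the empty-vector array (horizontal axis) of 53 mitotic genes, grouped by role, for the Dnmt1 shRNA array (triangles) and the ATM-vector array (squares). Bars are the scanner software's error of the ratio on each side. Triangles lie between -0.74 and 0.17, squares between -1.29 and 0.69.

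The ATM-vector array was compared with the empty-vector array to see how the same genes stood in cells given a vector for ATM. Of 2 Atm probes 1 was well above background, with a log2 ratio of 0.06, and since its place relative to the knockout and the vector is unknown it checks neither. Of the 53 members 39 were below 0 and 14 above 0, where 46% of all 18463 genes were below 0. The median was -0.23, with quartiles of -0.38 and 0.01, and all genes had a median of 0.05. Members at least 1.5-fold lower numbered 4 and at least 1.5-fold higher 1, where all genes gave 14.4% and 17.2%, and the counts were no higher than that background. Among all 7655 genes with a mean level above the 75th percentile, 44.7% were below 0, 7.8% were at least 1.5-fold lower and 11.5% higher. At 2-fold there were 2 lower members and 0 higher, where all genes gave 7.96% and 8.45%. The ATM-vector array lay alone on slide 2 and scan 2, so slide and vector cannot be told apart. The housekeeping list of 26 measured genes had a median of 0.35 in this comparison. In a setting added after the data were seen, each array was centred on the median level of that list's probes. The list's own median ratio was then still 0.26, so this step did not bring it to 0. The members' median was then -0.33 and 10 members were at least 1.5-fold lower, where all genes had a median of -0.04 and 17.8% were.

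Foxm1 differed most. It had levels of -0.56 on the ATM-vector array and 0.73 on the empty-vector array, a ratio of -1.29 or 2.45-fold lower, and its 2 probes gave -1.43 and -1.16. Ncapd2, a condensin I subunit, followed with levels of 3.43 on the ATM-vector array and 4.47 on the empty-vector array, a ratio of -1.04 or 2.05-fold lower. Kif20a, a kinesin that carries the passenger complex to the central spindle, had levels of 3.56 and 4.38 on the ATM-vector and empty-vector arrays, 1.76-fold lower. Tpx2 was 1.60-fold lower by the mean of probes at -0.75 and -0.60. All 4 kept a log2 ratio below -0.5 under each of the alternatives tried. Cdca3, Cdc25c, Spc24, Aurka, Cdc20 and Ncaph stood between -0.56 and -0.50, and Ccnb2, Kif2c and Bub1b between -0.46 and -0.44.

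Some partners of these genes stood on the other side of 0. Mad2l1, which inhibits Cdc20 in the checkpoint, had levels of 1.86 on the ATM-vector array and 1.17 on the empty-vector array, a ratio of 0.69 or 1.62-fold higher. Its 3 probes gave 0.92, 0.89 and 0.27, the last from the brightest, so the size depends on the probe. Ndc80 stood at 0.54 while Spc24 and Spc25 of the same complex stood at -0.54 and -0.26 and Nuf2 at -0.04. The Nuf2 value is the mean of a brighter probe at -0.25 and the dimmest member probe at 0.16. Aurkb stood at 0.50, Prc1 and Cdk1 at 0.30, Pttg1 at 0.27 and Cenph at 0.21. The Cdk1 probes gave 0.70, 0.20 and -0.01, and Racgap1's gave 0.37 and -0.01. Over the 13 members with several probes, probes of 1 gene differed with a pooled SD of 0.22 in this comparison, and of 0.10 between the Dnmt1 shRNA and empty-vector arrays. Over all genes with several probes these SDs were larger, 0.47 and 0.36.

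**Figure D3:**
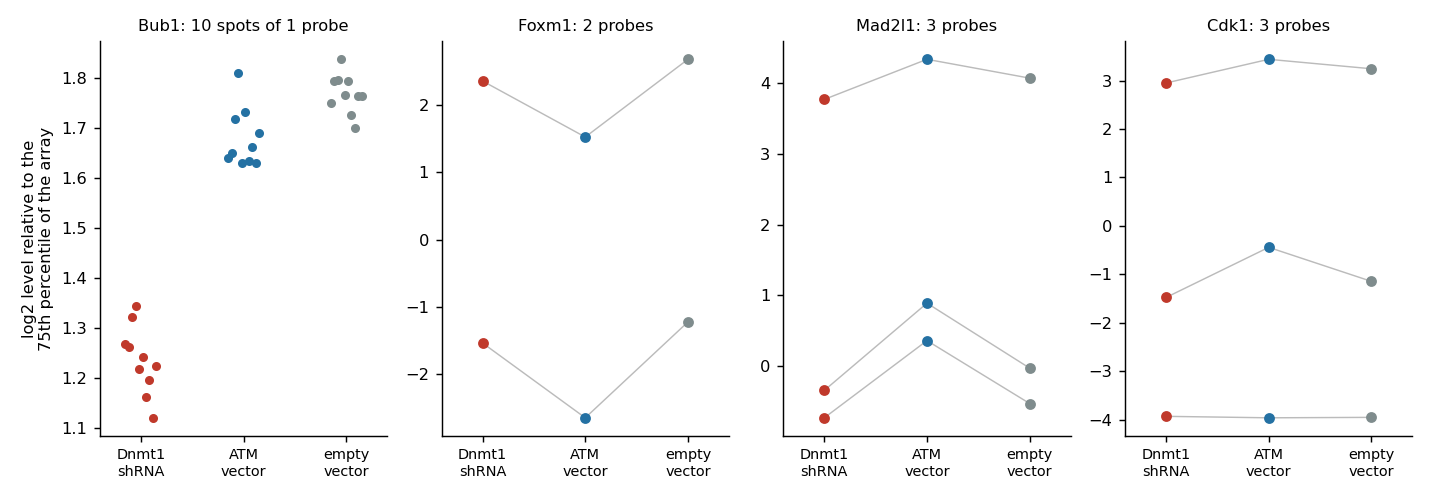
Log2 level relative to the array's 75th percentile (vertical axis, own scale in each panel) on the Dnmt1 shRNA, ATM-vector and empty-vector arrays, for 10 spots of the Bub1 probe and for each probe of Foxm1, Mad2l1 and Cdk1. Grey lines join 1 probe. Both Foxm1 probes are lowest and all 3 Mad2l1 probes highest on the ATM-vector array, while the dimmest Cdk1 probe is flat.

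By role, the median ratio of the ATM-vector array to the empty-vector array was -0.33 for the genes of mitotic entry, -0.26 for anaphase and exit, -0.24 for kinases and checkpoint, -0.19 for condensin and Top2a, -0.15 for spindle genes, -0.11 for cytokinesis, -0.05 for the kinetochore and 0.02 for the passenger complex. The last was -0.05 after quantile scaling and after cyclic loess. The kinetochore median ran from -0.25 to -0.01 over the settings tried, lowest with the brightest probe of each gene. The distance between the members' quartiles was 0.39 log2 units here and 0.21 between the Dnmt1 shRNA and empty-vector arrays. For all genes it was 0.73 and 0.45. Both comparisons share the empty-vector array, and their values are given side by side only.

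**Figure D4:**
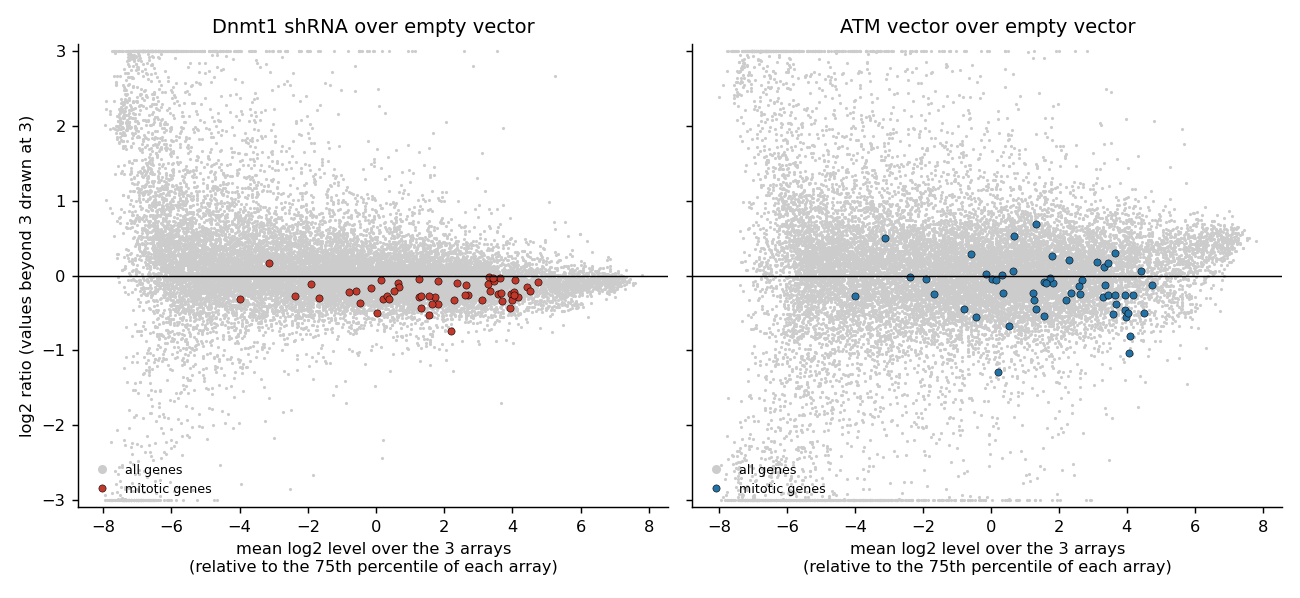
Log2 ratio (vertical axis) against mean log2 level over the 3 arrays (horizontal axis, relative to each array's 75th percentile), for the Dnmt1 shRNA array (left) and the ATM-vector array (right) over the empty-vector array. Grey points are all genes and coloured points the 53 mitotic genes, of which 52 lie below 0 on the left and 39 on the right.

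Set directly against the Dnmt1 shRNA array, the ATM-vector array had 32 members above 0 and 21 below, with a median of 0.06, and all genes had 47.1% below 0 and a median of 0.04. Mad2l1 at 0.97, Ndc80 at 0.68, Cenph at 0.54 and Racgap1 at 0.51 were highest. Foxm1 at -0.97, Ncapd2 at -0.82 and Kif20a at -0.75 were lowest. Members at least 1.5-fold lower numbered 3 and at least 1.5-fold higher 2, where all genes gave 19.4% and 18%. At 2-fold 0 members were lower or higher, where all genes gave 12.5% and 7.88%. Among all genes with a mean level above the 75th percentile 38% were below 0, 8.21% were at least 1.5-fold lower and 17.3% higher. Under other scalings the members' median stayed close to that of all genes. It was 0.02 for members and 0.06 for all genes after quantile scaling, and -0.03 for both after cyclic loess. It was 0.06 and 0.03 when scaled on the median of probes well above background, and -0.14 and -0.17 when centred on the housekeeping list. The members' median of 0.06 lay below that of genes with a mean level above the 75th percentile, 0.15. It also lay below that of all genes without a filter on dim probes, 0.29.

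Other genes that are no members were examined as lists, and Ska1 stands in both the kinetochore and the spindle list. Of 31 further kinetochore and centromere genes 27 were below 0 on the Dnmt1 shRNA array relative to the empty-vector array, with a median of -0.24, led by Cenpw at -0.61 and Zwint and Knl1 at -0.45. On the ATM-vector array 16 were below 0 and 15 above, with a median of 0.00, from Mis18a at -0.70 to Cenpq at 0.59. Of 32 further spindle and cytokinesis genes 24 were below 0 on the Dnmt1 shRNA array (median -0.14) and 22 on the ATM-vector array (median -0.17). On the latter 7 were at least 1.5-fold lower and 3 higher, beside the 14.4% and 17.2% of all genes. Ckap2 stood there at -0.90 and Haus6, an augmin subunit, at 0.84. The list also holds Kif3a, Kif5b and Kif13a, kinesins not confined to mitosis, at 0.65, 0.27 and -0.01 on the ATM-vector array. Of 28 further G2 and M genes 21 and 20 were below 0, with medians of -0.18 and -0.16, and Lmnb1, a lamin, stood at -0.93 on the ATM-vector array. Condensin II and cohesin genes had medians of -0.09 and -0.13. Ncapd3, the condensin II counterpart of Ncapd2, stood at -0.68 on the ATM-vector array.

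Genes of the regulators that read these promoters differed among themselves. The list of 19 genes for MuvB, B-MYB, E2F factors, pocket proteins and NF-Y had medians of -0.15 on the Dnmt1 shRNA array, against -0.10 on the ATM-vector array, with 12 and 11 genes below 0. On the ATM-vector array E2f2 stood at 0.91, E2f3 at -0.73, Nfya, a subunit of the CCAAT-binding factor, at -0.64 and Rbl1, a pocket protein gene, at -0.57. Of the S-phase genes, 54 of 56 were below 0 on the Dnmt1 shRNA array, with a median of -0.28, and 38 of 55 on the ATM-vector array, with a median of -0.20. These medians lie beside those of the members, -0.25 and -0.23, and nothing is called particular to the mitotic genes from them. Within the members, the 33 with a CHR match and the 11 without one had medians of -0.25 and -0.27 on the Dnmt1 shRNA array, and of -0.24 and -0.05 on the ATM-vector array. With a CHR match near the start, 31 members against 13 without, they were -0.25 and -0.26, and -0.23 and -0.10. Split by CCAAT, 33 members with it against 11 without, they were -0.27 and -0.16, and -0.24 and -0.05. The ATM-vector values thus differed by CCAAT much as by CHR.

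**Figure D5:**
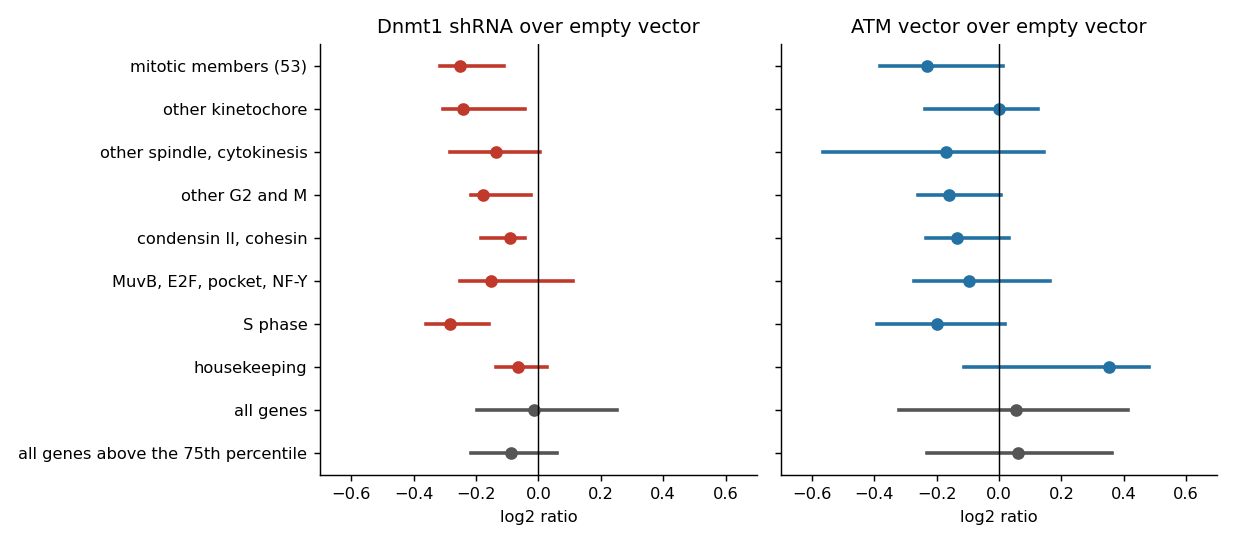
Median log2 ratio (points) with the quartiles (bars) for the mitotic members, other gene lists, all genes and all genes brighter than the 75th percentile, for the Dnmt1 shRNA array (left) and the ATM-vector array (right) over the empty-vector array. On the left the members at -0.25 and the S-phase genes at -0.28 stand lowest, and on the right the housekeeping list stands at 0.35.

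The fibroblast label was checked against its markers. Of 13 fibroblast markers 13, 13 and 12 were well above background on the Dnmt1 shRNA, ATM-vector and empty-vector arrays, with summed signals of 1464807, 1892337 and 1529739. Epithelial markers well above background numbered 5, 3 and 3 of 7 in that order of arrays, with summed signals of 6415, 1150 and 5561, with Epcam and Cldn4 not well above background on any array and Krt8 and Krt18 on the Dnmt1 shRNA array only. Blood markers numbered 1, 2 and 2 of the 6 with a probe (Cd68 had none under a matching accession), with summed signals of 4816, 3692 and 2085, with Hbb-bh1 on the ATM-vector array only and Adgre1, Hba-x and Lyz2 on none. Cdh1, Krt19 and Esrp1 of the epithelial list and Csf1r of the blood list were well above background on every array. Endothelial markers numbered 2 of 5 on every array, Pecam1 and Kdr, with summed signals of 3822, 6367 and 4625. Neural markers numbered 4 of 6 on every array, Tubb3, Map2, Nes and Ncam1, with summed signals of 41759, 37991 and 41288. Cdh5, Tek, Emcn, Sox2 and Gfap were well above background on none. The part of such cells in the mitotic values was not tested.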

How the data were processed

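RNA of 3 groups was measured on 1 array each. The submitters' processing notes name Agilent Feature Extraction, version 10.7.3.1. The authors deposited its scanner output, whose processed signals are intensity values on a linear scale, background-subtracted and detrended, with no scaling between arrays recorded in the file headers. The deposited series matrix holds the same intensity values, within 0.495%, with column medians of 80.4, 68.6 and 75.2 for the Dnmt1 shRNA, ATM-vector and empty-vector arrays. Its scale is linear and each column is 1 array, not a ratio.

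Control spots and 235, 167 and 228 outlier spots (same order of arrays) were removed; 0 spots were saturated. Log2 processed signals were averaged over the spots of a probe and each array's 75th percentile (2061, 2101 and 2312 intensity units) was subtracted. Probes well above background numbered 23476, 21659 and 21706 of 39404, and repeated spots had a median SD of 0.05 (log2) on each array. The number of arrays limits the precision. In a comparison a gene's ratio is the mean over probes well above background on at least 1 of its 2 arrays. Of the probes 26397 were named with 1 gene from RefSeq accessions and 13007 kept the file's accession (table of GRCm38.p6; the array design is on mm9, so none of the table's gene coordinates are used), and promoters are from the RefSeq promoter table of GRCm38.p6. Near-identical transcripts may cross-hybridise.

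The members and lists were chosen with earlier results of these data known. Every member may be named; of other lists, up to 4 genes with the largest differences per comparison; promoters printed are the 6 CHR-bearing members with the lowest ratios, none from chromosome 18. No test was possible with 1 array a group. Calculations used Python 3.11.15, numpy 2.4.6, pandas 2.3.3 and limma 3.58.1 in R 4.3.3, and were tested on simulated data. The normexp alternative used median spot signals, since the files hold no mean signal. Alternatives were another background correction, scaling, filter and probe rule.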

Additional observations from a re-analysis of the deposited data

How the results depend on the processing

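The members' median log2 ratio between the Dnmt1 shRNA array and the empty-vector array stayed below 0 under all 11 alternatives, from -0.26 to -0.14, and between the ATM-vector array and the empty-vector array from -0.33 to -0.19. Centring on the housekeeping list adds 1 constant to every gene, so signs are counted without it. In the first comparison 43 of 53 members stayed below 0 and 10 took both signs. In the second 34 stayed below 0, 10 above 0 and 9 took both signs. Stable signs were not counted over all genes, so these counts have no background. By setting, 47.1% to 66.1% of all genes were below 0 in the first comparison and 42.4% to 49.4% in the second. A median or ratio was counted as moved beyond 0.07 log2 units, the spread of a ratio between repeated spots. A count of members was taken as moved when it changed by more than 1.5-fold, or to or from 0. Cyclic loess gave medians of -0.17 for the Dnmt1 shRNA array over the empty-vector array and -0.0301 for the ATM-vector array over the Dnmt1 shRNA array, and 8 members at least 1.5-fold lower on the ATM-vector array than on the empty-vector array, where 15.8% of all genes were. Normexp gave 2 members at least 1.5-fold lower on the Dnmt1 shRNA array than on the empty-vector array, where 2.59% of all genes were. With the brightest probe of each gene, 0 members were at least 1.5-fold higher on the ATM-vector array than on the empty-vector array, where 17.0% of all genes were. Against the Dnmt1 shRNA array 1 member was, where 18.2% of all genes were. Centring on the housekeeping list, added after the data were seen like the filter on bright probes, put the median of all genes at 0.10 for Dnmt1 shRNA over empty vector, -0.04 for ATM vector over empty vector and -0.17 for ATM vector over Dnmt1 shRNA, a move of over 0.1 in the first and the last. The members moved by the same constant, to medians of -0.14 (Dnmt1 shRNA over empty vector, 39 members below 0 where 35.7% of all genes were), -0.33 (ATM vector over empty vector, 10 members at least 1.5-fold lower) and -0.14 (ATM vector over Dnmt1 shRNA, 36 members below 0 where 61.4% of all genes were, and 1 at least 1.5-fold higher). The step centres each array on the median level of the list's probes. The list's own median ratio was then 0.05, 0.26 and 0.15 in that order of comparisons, so it was not brought to 0. The cause of the moves under the other settings was not tested. Some of the 11 alternatives could hardly move the members. Their values did not change without a filter on dim probes or with only probes well above background on all arrays, since all their probes were. The series matrix holds the same signals. Without a filter on dim probes all genes had a median of -0.13 between the Dnmt1 shRNA array and the empty-vector array. Quantile scaling gave 6.88% of all genes at least 1.5-fold lower and 10.6% higher in that comparison, against 4.74% and 13.1%. Centring on the housekeeping list gave 17.8% lower and 14.0% higher for the ATM-vector array over the empty-vector array and 26.2% and 11.4% over the Dnmt1 shRNA array. No paired analysis was possible because each group has 1 array. Signal over background limits the dimmest members, Cenpf and Aurkb, which rest on 1 probe each.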
